A study of Mus musculus with 21 samples.

Results

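The genes followed here are 10 markers of lymphoid priming in blood-forming cells: Flt3, Il7r, Ccr9, Il12a, Dntt, Rag1, Rag2, Ikzf1, Satb1 and Lsp1. They were chosen by name, each symbol matched 1 of the 54446 Ensembl gene IDs in a bulk RNA-seq count table of 21 mouse libraries, and all 10 were among the 21100 genes that passed the filter on low counts. The libraries were made from long-term haematopoietic stem cells (LT-HSC) and from multipotent progenitors of the kinds called MPP2 and MPP3, with 100 to 200 cells sorted from bone marrow per library. The donors were C57BL/6 mice aged 12 weeks, 4 of them wild type (WT) for Phf6 and 4 lacking it (KO), described as pairs. Phf6 is an X-linked gene for a nuclear protein with PHD-like zinc fingers. There were 2 WT and 3 KO libraries of LT-HSC, and 4 WT and 4 KO libraries each of MPP2 and of MPP3. Sorting used antibodies to CD48, CD150, cKit, Sca-1 and lineage markers, and none to Flt3 is listed. The sources used here do not give the gates, the way the knockout was made, or the cells in which the gene was lost. Titles carry running numbers of unstated meaning, from 52 to 64 for replicates 1 and 2 and from 162 to 212 for the other replicates, which are called low-numbered and high-numbered libraries below. The number of the KO LT-HSC replicate 3 is 212, and no WT LT-HSC library has a high number.

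Lymphoid priming is the onset of lymphoid genes at low level in progenitors that can still form several blood lineages. In textbook accounts it goes with rising Flt3, the receptor for FLT3 ligand, and with the first transcripts of the machinery that later cuts and joins antigen receptor genes. Common gating schemes divide CD150- CD48+ progenitors by a Flt3 stain into MPP3 and the lymphoid-primed, Flt3-high MPP4. Stem cells of the LT-HSC gate are known for little or no Flt3.

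Flt3 lies on chromosome 5 of mm10 (147330741 to 147400489, minus strand) and Dntt on chromosome 19 (41029275 to 41059525, plus strand). Rag1 (101638282 to 101649501, minus strand) and Rag2 (101624718 to 101632529, plus strand) are neighbours on chromosome 2 that point toward each other. The others lie on chromosome 15 (Il7r, 9505788 to 9530176), 9 (Ccr9, 123678439 to 123784330), 3 (Il12a, 68690644 to 68698547), 11 (Ikzf1, 11685003 to 11772926), 17 (Satb1, 51736187 to 51833290) and 7 (Lsp1, 142460809 to 142494867). The 250 bases before the RefSeq start of these 4 genes are shown because the levels of Flt3, Dntt and Rag2 varied closely together across libraries and those of Rag1, the neighbour of Rag2, less so. Each is printed 5′ to 3′ on the gene's own strand, from RefSeq on GRCm38.p6, at chr5:147400490-147400739 for Flt3, chr19:41029025-41029274 for Dntt, chr2:101624462-101624711 for Rag2 and chr2:101649533-101649782 for Rag1. Capitals mark matches on either strand to CAGNTG, the E-box form bound by E2A-type factors, and to TGTGGT, the core bound by RUNX factors, and the matches may overlap.
Flt3 promoter: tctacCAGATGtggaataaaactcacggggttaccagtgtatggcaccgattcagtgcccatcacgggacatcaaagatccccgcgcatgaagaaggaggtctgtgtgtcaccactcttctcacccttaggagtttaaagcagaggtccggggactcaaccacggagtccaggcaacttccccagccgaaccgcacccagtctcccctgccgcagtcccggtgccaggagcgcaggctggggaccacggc
Dntt promoter: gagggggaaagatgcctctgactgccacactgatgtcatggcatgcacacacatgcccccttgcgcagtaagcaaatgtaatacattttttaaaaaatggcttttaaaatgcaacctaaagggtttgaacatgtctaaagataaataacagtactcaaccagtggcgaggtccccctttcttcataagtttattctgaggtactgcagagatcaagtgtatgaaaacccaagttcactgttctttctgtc
Rag2 promoter: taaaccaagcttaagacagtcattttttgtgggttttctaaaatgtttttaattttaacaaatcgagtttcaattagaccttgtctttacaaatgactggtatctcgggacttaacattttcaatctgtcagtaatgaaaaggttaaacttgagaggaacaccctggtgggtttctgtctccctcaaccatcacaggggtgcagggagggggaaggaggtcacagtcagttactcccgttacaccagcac
Rag1 promoter: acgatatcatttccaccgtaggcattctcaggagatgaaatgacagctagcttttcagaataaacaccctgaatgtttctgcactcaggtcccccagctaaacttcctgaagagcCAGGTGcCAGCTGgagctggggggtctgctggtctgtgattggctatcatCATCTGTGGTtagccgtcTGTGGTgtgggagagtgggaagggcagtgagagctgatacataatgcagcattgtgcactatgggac
The Flt3 window held 1 E-box match, the Rag1 window 3 E-box and 2 RUNX matches, and the Dntt and Rag2 windows held neither. Of 32851 RefSeq windows of the 250 bases before a start, 44.8% held the E-box letters and 14% the RUNX letters on either strand. A match is a description of letters only.

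Total counts ran from 18892723 to 31611366 per library, so 3 counts, taken as the floor, corresponded to 0.0985 to 0.194 counts per 1000000 (CPM, on library sizes scaled by TMM). Phf6 had 43 to 395 counts in the 11 KO libraries and 1545 to 5204 in the 10 WT libraries, as the labels state. Transcripts of the stained markers followed the labels in part: Cd48 had 5.57 to 19.1 CPM in the 5 LT-HSC libraries and 165 CPM or more in every MPP2 and MPP3 library, and Slamf1, which encodes CD150, had at most 1.99 CPM in MPP3. In MPP2, Slamf1 had 9.18 to 37 CPM in the 4 low-numbered and 59.6 to 80.1 CPM in the 4 high-numbered libraries, without overlap. Ly6a, which encodes Sca-1, had 158 to 1429 CPM in the 4 low-numbered MPP2 libraries and 5.74 to 31.3 CPM in the 4 high-numbered ones. Ly6a and Kit, which encodes cKit, summed to 441 to 891 CPM in low-numbered and 190 to 336 CPM in high-numbered MPP3 libraries. That sum thus divided by title number without overlap in MPP3 too. Antibody gene counts made up 45.8% of the KO MPP2 replicate 1 and 25.8% of the KO MPP3 replicate 1, and ribosomal RNA 21.2% of the KO MPP3 replicate 2. In bulk samples, fewer cells of a type and less RNA per cell cannot be told apart.

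Within each genotype the mean level was highest in MPP3 for every gene, except that Rag1 in WT was as scarce in MPP3 (94 counts over 4 libraries) as in MPP2 (98 counts). In the 4 WT MPP3 libraries the level per kilobase of exon was 514 ± 98.5 CPM per kb for Dntt (SD, n = 4, as for the values that follow), 177 ± 24.4 for Flt3 and 172 ± 25.3 for Il12a. Dntt thus stood above all others, and Flt3 and Il12a did not differ beyond their spread. Lsp1 followed at 82.3 ± 6.81 CPM per kb, then Ikzf1 at 24.5 ± 2.22, Satb1 at 14.4 ± 3.63, Rag2 at 12.8 ± 5.24 and Il7r at 6.25 ± 4.28. Rag2 overlapped with Satb1 and with Il7r, and Il7r also with Ccr9, while Satb1 did not overlap with Ikzf1. Ccr9 at 1.19 ± 1.09 and Rag1 at 0.132 ± 0.0727 CPM per kb were lowest and overlapped within their spread. Exon length here is the union of all annotated exons, which is long for Satb1 and Ccr9 (19.027 and 10.26 kb) and lowers their values.

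**Figure D1:**
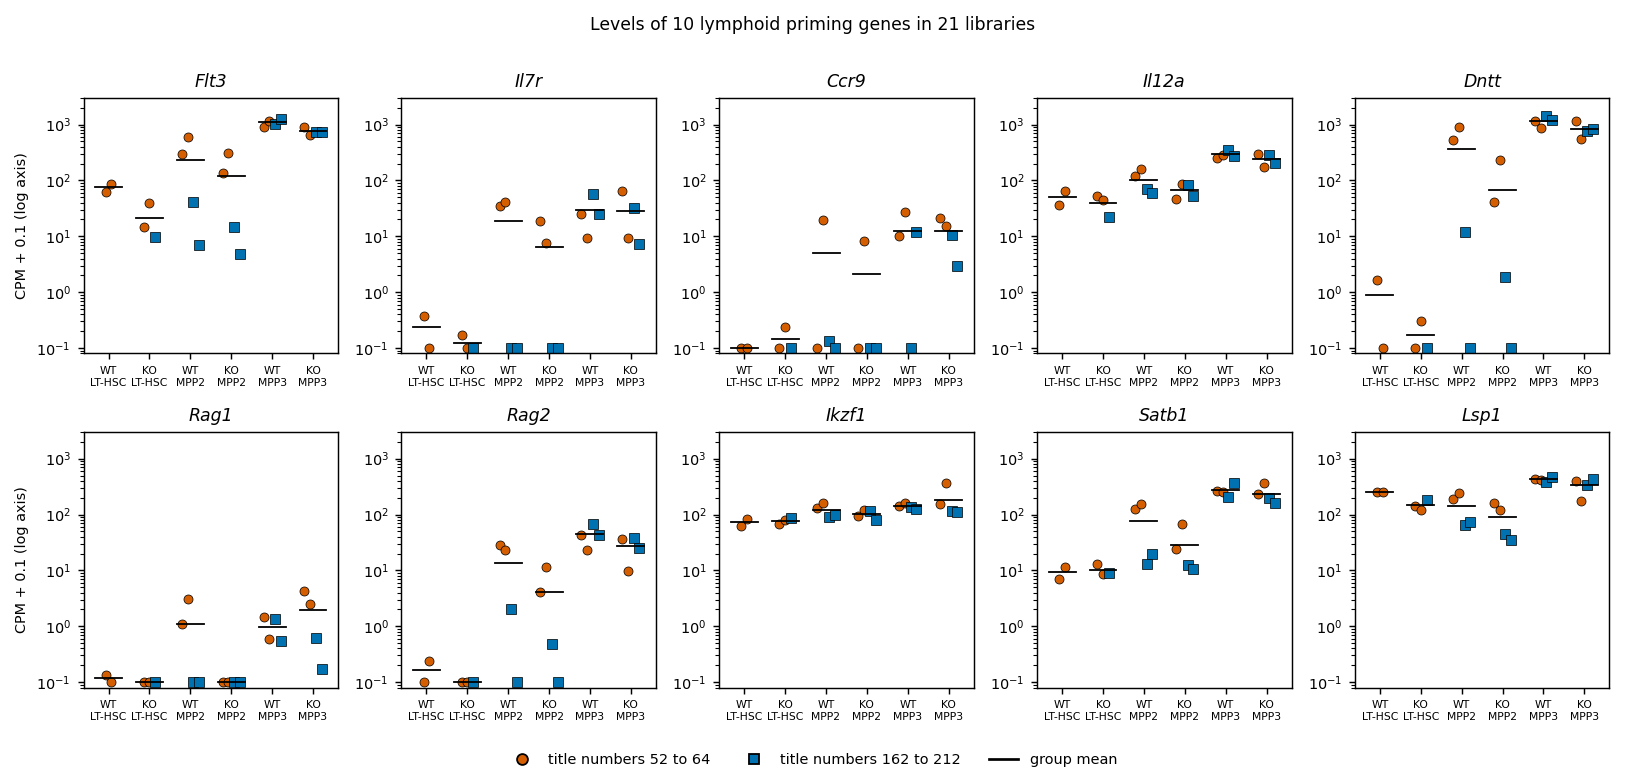
Level of each of the 10 genes in each of the 21 libraries, as CPM + 0.1 on a log axis, by population and genotype; circles are low-numbered and squares high-numbered libraries, and lines are group means. In MPP2 the low-numbered libraries lie above the high-numbered ones for 6 genes, while in MPP3 the libraries lie close together for Flt3 (645 to 1262 CPM).

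Among the surface receptors and cytokine genes, Flt3 encodes the receptor tyrosine kinase used to mark lymphoid-primed progenitors. It had 61.8 and 87.8 CPM in the WT LT-HSC libraries and 14.5, 40 and 9.71 CPM in the KO ones. In WT MPP2 it had 301, 591, 40.9 and 6.96 CPM in replicates 1 to 4, and in KO MPP2 137, 315, 14.7 and 4.81 CPM. In WT MPP3 it had 923, 1161, 1017 and 1262 CPM, and in KO MPP3 899, 645, 747 and 722 CPM. Every MPP3 library was thus above every other library, LT-HSC was low but well above the floor, and MPP2 ran from below the LT-HSC levels to 591 CPM. Il7r, which encodes the alpha chain of the interleukin 7 receptor needed by lymphoid progenitors, had at most 8 counts in any LT-HSC library. In MPP2 it had 34.5 and 41.2 CPM in the low-numbered WT libraries, 18.5 and 7.36 CPM in the low-numbered KO libraries and 0 counts in all 4 high-numbered libraries. In MPP3 it had 25.2, 9.34, 56.9 and 25.1 CPM in WT and 64.2, 9.22, 32.3 and 7.07 CPM in KO. The low-numbered MPP2 libraries therefore overlapped with MPP3 for Il7r. Ccr9, the chemokine receptor that guides progenitors to the thymus, had 27.2 CPM at most and was spread unevenly: WT MPP3 replicate 3 had 0 counts while the other 3 WT MPP3 libraries had 10.1, 27.2 and 11.6 CPM. In KO MPP3 it had 21.2, 15, 10.5 and 2.88 CPM. Outside MPP3 it was above 3 counts per library only in WT MPP2 replicate 2 (19.3 CPM), KO MPP2 replicate 2 (8.09 CPM) and 1 KO LT-HSC library with 4 counts. Il12a, which encodes the p35 subunit of interleukin 12, was present in every library. Its CPM were 36.7 and 65.5 in WT LT-HSC and 53.3, 43.7 and 22.5 in KO LT-HSC. In MPP2 they were 120, 161, 71.5 and 58.4 in WT and 46.7, 87.2, 82.5 and 53.4 in KO, overlapping with LT-HSC. In MPP3 they were 257, 281, 355 and 274 in WT and 300, 176, 281 and 204 in KO, above every MPP2 and LT-HSC library.

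The recombination genes were at or near 0 in stem cells. Dntt, which encodes terminal deoxynucleotidyl transferase, had 45 counts in 1 WT LT-HSC library, 6 counts in 1 KO LT-HSC library and 0 in the other 3. In WT MPP2 it had 530, 917, 11.9 and 0 CPM and in KO MPP2 41.8, 230, 1.77 and 0 CPM. In WT MPP3 it had 1181, 885, 1434 and 1213 CPM and in KO MPP3 1145, 559, 783 and 839 CPM. All MPP3 libraries were high, whereas MPP2 ran from 0 up to 917 CPM, within the MPP3 range. Rag2, a subunit of the V(D)J recombinase, followed a like course, with 0.136 CPM at most in LT-HSC. It had 28.7, 23.3, 1.9 and 0 CPM in WT MPP2 and 4, 11.4, 0.39 and 0 CPM in KO MPP2. It had 43.3, 22.9, 66.8 and 42.9 CPM in WT MPP3 and 36.9, 9.85, 37.2 and 25.3 CPM in KO MPP3. All MPP3 libraries held Rag2, but 3 of the 8 were below the highest MPP2 library, so the populations overlapped. Rag2 shares 208 exon bases with B230118H07Rik on the opposite strand, and whether the counting used strand is not given, so some of its reads could belong to that gene. B230118H07Rik had 61.5 to 118 CPM across the libraries, including the LT-HSC libraries where Rag2 had 0 to 4 counts. Rag1, the partner subunit, was scarce, with 351 counts in all 21 libraries against 9307 for Rag2. In WT MPP2 it had 25, 73, 0 and 0 counts, and in KO MPP2 it had 0 counts in all 4 libraries. In MPP3 it had 33, 14, 35 and 12 counts in WT and 98, 43, 15 and 2 counts in KO. Rag1 was thus seen in every MPP3 library, and elsewhere only in 2 WT MPP2 libraries and, with 1 count, in 1 WT LT-HSC library.

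The nuclear regulators and Lsp1 were present in every library. Satb1, a chromatin organiser known for its part in lymphoid differentiation, had 6.82 and 11.5 CPM in WT LT-HSC and 12.9, 8.61 and 9.04 CPM in KO LT-HSC. In WT MPP2 it had 124, 154, 12.8 and 19.5 CPM and in KO MPP2 24, 68.7, 12.3 and 10.3 CPM. In WT MPP3 it had 267, 257, 203 and 369 CPM and in KO MPP3 236, 360, 195 and 161 CPM. All MPP3 libraries were above all others, and the high-numbered MPP2 libraries were close to LT-HSC. Ikzf1, which encodes Ikaros, a zinc finger factor active from stem cells onward, varied least: 63.3 to 86.7 CPM over the 5 LT-HSC libraries. It had 133, 159, 89.9 and 96.4 CPM in WT MPP2 and 92.8, 121, 116 and 78.2 CPM in KO MPP2. It had 142, 158, 139 and 127 CPM in WT MPP3 and 153, 360, 114 and 110 CPM in KO MPP3. The value of 360 CPM came from the KO MPP3 replicate 2, the library rich in ribosomal RNA, and the MPP2 and MPP3 values overlapped. Lsp1, an actin-binding protein of leukocytes, was the exception to the order of the populations. It had 254 and 255 CPM in WT LT-HSC and 140, 119 and 179 CPM in KO LT-HSC. In MPP2 it had 193, 248, 65.4 and 72.7 CPM in WT and 159, 120, 44 and 34.5 CPM in KO. In MPP3 it had 436, 417, 383 and 467 CPM in WT and 397, 174, 341 and 437 CPM in KO. In WT, Lsp1 was lower in every MPP2 library than in either LT-HSC library, and highest in MPP3.

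Between populations of 1 genotype, the changes that passed the test in the fit of all 6 groups were all upward in MPP3 and few. Each was tested with edgeR's quasi-likelihood test over all 21100 genes in 1 fit of the 6 groups, with Benjamini-Hochberg adjustment and a threshold of 0.05. Libraries of different populations with neighbouring title numbers may share a mouse, and the design text does not tie libraries to mice. In WT, Il12a rose from MPP2 to MPP3 by a log2 fold change of 1.51 ± 0.327 (SE; edgeR adjusted p = 0.0303), and it was the only one of the 10 called, where 0.218% of all genes tested were called higher and 1.2% in either direction. From LT-HSC to MPP3 in WT, Il12a rose by 2.51 ± 0.447 (edgeR adjusted p = 0.00674) and Satb1 by 4.90 ± 1.02 (edgeR adjusted p = 0.0222), 2 of 10 where 0.379% of all genes were called higher and 1.1% in either direction. In KO the same 2 genes rose from MPP2 to MPP3, Il12a by 1.83 ± 0.33 (edgeR adjusted p = 0.0156) and Satb1 by 3.05 ± 0.688 (edgeR adjusted p = 0.0409), where 0.36% of all genes were called higher and 0.886% in either direction. From LT-HSC to MPP3 in KO, 4 of 10 rose, where 1.09% of all genes were called higher and 2.64% in either direction. Il12a rose by 2.59 ± 0.379 (edgeR adjusted p = 0.000572) and Satb1 by 4.55 ± 0.837 (edgeR adjusted p = 0.00432). Dntt rose by 13.46 ± 3.45 (edgeR adjusted p = 0.0499), from 6 counts over the 3 KO LT-HSC libraries, and Rag2, with 0 counts there, was at least 834-fold higher in KO MPP3 (3 counts over the group as floor; edgeR adjusted p = 0.0293). No gene of the 10 passed between MPP2 and LT-HSC in WT or KO, where 0.63% and 1.81% of all genes did. At an unadjusted p under 0.05 the count there was 5 in WT, against 13% of all genes, and 4 in KO, against 16.3%. With DESeq2 at an adjusted p under 0.05 it was 4 and 3, and the DESeq2 share of all genes is not given here.

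Without a test, the populations separated more widely than these calls. All WT MPP3 libraries were above both WT LT-HSC libraries for 9 of 10 genes, against 12% of all genes, and above all WT MPP2 libraries for 4 of 10, against 4.87%. In KO these counts were 9 of 10, against 5.28%, and 6 of 10, against 3.5%. Lsp1 was the only gene higher in WT LT-HSC than in every WT MPP2 library, as were 15.3% of all genes. The median log2 difference of the 10 genes between WT MPP3 and WT LT-HSC was 5.11, or 5.27 with the genes at 3 counts or fewer in a group taken at their bound or pooled ratio, beside 0.03 over all genes. The Il12a call between WT MPP2 and WT MPP3 was lost on leaving out any of 7 of the 8 libraries (edgeR adjusted p = 0.0508 to 0.116) and kept without WT MPP2 replicate 2. The calls of Il12a and Satb1 between WT LT-HSC and WT MPP3 were lost without WT LT-HSC replicate 1 (edgeR adjusted p = 0.273 and 0.452) and without replicate 2 (0.0563 and 0.284). In KO, both calls between MPP2 and MPP3 were lost without KO MPP2 replicate 3 or replicate 4. The Dntt and Rag2 calls in KO were lost on leaving out any 1 of the 3 KO LT-HSC libraries, with edgeR adjusted p-values from 0.0914 to 0.186, and the Dntt call also without any 1 KO MPP3 library (0.0524 to 0.0797). With the mouse inferred from title numbers as a block, Dntt (edgeR adjusted p = 0.0653) and Rag2 (0.0654) did not pass in KO and Flt3 did (0.0466). Other alternatives, counted in the last section, called more of the 10 genes. DESeq2 did so in every comparison between populations. A fit of only the groups compared called more between LT-HSC and MPP3 in each genotype, but fewer between MPP2 and MPP3. The share of all genes called is not given here for these alternatives.

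Within MPP2 the levels divided by title number. The 4 low-numbered MPP2 libraries were above the 4 high-numbered ones without overlap for 6 of 10 genes, Flt3, Dntt, Il7r, Rag2, Satb1 and Lsp1, as were 7.45% of all genes. In a fit with the groups divided further by title number, the same 6 passed, all higher in the low-numbered libraries, where 4.51% of all genes were called higher and 6.31% in either direction. Lsp1 was higher by a log2 difference of 1.75 ± 0.218 and Satb1 by 2.57 ± 0.32 (edgeR adjusted p = 0.000389 for each). Flt3 was higher by 4.37 ± 0.556 (edgeR adjusted p = 0.000449), from 31823 against 1961 counts. Rag2 was higher by 5.0 ± 0.965 (edgeR adjusted p = 0.00784) and Dntt by 7.09 ± 1.45 (edgeR adjusted p = 0.0165). Il7r, with 2333 against 0 counts, was at least 960-fold higher (edgeR adjusted p = 0.000453). Il12a (0.55 ± 0.252, edgeR adjusted p = 0.214) and Ikzf1 (0.39 ± 0.22, edgeR adjusted p = 0.31) did not pass. The Dntt call was lost without KO MPP2 replicate 4 (edgeR adjusted p = 0.0857). Ccr9 was split within the low-numbered libraries, since only replicate 2 of each genotype held it. The division was seen in earlier results of these data, so these values describe it and are not independent evidence of it.

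In MPP3 no gene of the 10 passed between low-numbered and high-numbered libraries, where 0.545% of all genes did. The MPP3 log2 differences were -0.03 ± 0.482 for Flt3, -0.14 ± 1.09 for Dntt and 0.68 ± 0.221 for Ikzf1 (edgeR adjusted p = 0.139). At an unadjusted p under 0.05 the count was 1, against 18.7% of all genes, and with DESeq2 it was 1, Ikzf1 in each case. The DESeq2 share of all genes is not given here. Ikzf1 had 360 CPM in the ribosomal RNA-rich KO MPP3 replicate 2 and 142 to 158 CPM in the other low-numbered MPP3 libraries. The test of the difference between the populations was passed by Flt3 (4.4 ± 0.715, edgeR adjusted p = 0.0114), Lsp1 (1.97 ± 0.303, edgeR adjusted p = 0.00872), Satb1 (2.26 ± 0.432, edgeR adjusted p = 0.0303) and Il7r (edgeR adjusted p = 0.00582), where 0.474% of all genes were called higher and 0.573% in either direction. For these 4 genes the low-numbered libraries exceeded the high-numbered ones by more in MPP2 than in MPP3. The call for Flt3 was lost without WT MPP3 replicate 1 (4.32, edgeR adjusted p = 0.0544). That for Satb1 was lost on leaving out any of 9 of the 16 libraries (edgeR adjusted p = 0.0501 to 0.103): WT MPP2 replicates 1, 2 and 3, KO MPP2 replicate 4, WT MPP3 replicates 1, 2 and 4, and KO MPP3 replicates 3 and 4.

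Markers of other cell types moved with this division of MPP2, and their part in it was not tested. Summed levels of 10 megakaryocyte-erythroid markers were 851 to 2079 CPM in the low-numbered and 3756 to 4647 CPM in the high-numbered MPP2 libraries, and their member Gata1 had 41.3 to 149 against 293 to 383 CPM. Summed levels of 10 granulocyte-monocyte markers were 1833 to 4539 against 127 to 2670 CPM. Summed levels of 10 markers of mature B and plasma cells were 13874 to 448747 against 39.2 to 66.4 CPM, nearly all from Igkc and Jchain. Among the low-numbered MPP2 libraries, KO MPP2 replicate 1 had the highest sum of these B and plasma cell markers and KO MPP2 replicate 2 the lowest. Summed levels of 11 plasmacytoid dendritic cell markers, of which Ccr9 is also one of the 10 genes, were 397 to 1401 against 180 to 240 CPM, without overlap. Of 10 tested, 3 passed as higher in the low-numbered libraries: Cox6a2 (8.14), Runx2 (1.67) and Tcf4 (0.84, all log2), while the defining marker Siglech had at most 0.526 CPM. Summed levels of 11 T and NK cell markers were 603 to 733 against 511 to 1154 CPM, mostly from Nkg7. Of 6 tested, 1 passed, Lck (2.08 ± 0.37, edgeR adjusted p = 0.0043), and Cd3e had at most 0.775 CPM. Summed levels of 9 neutrophil markers were 27.1 to 15049 against 5.2 to 34 CPM.

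**Figure D2:**
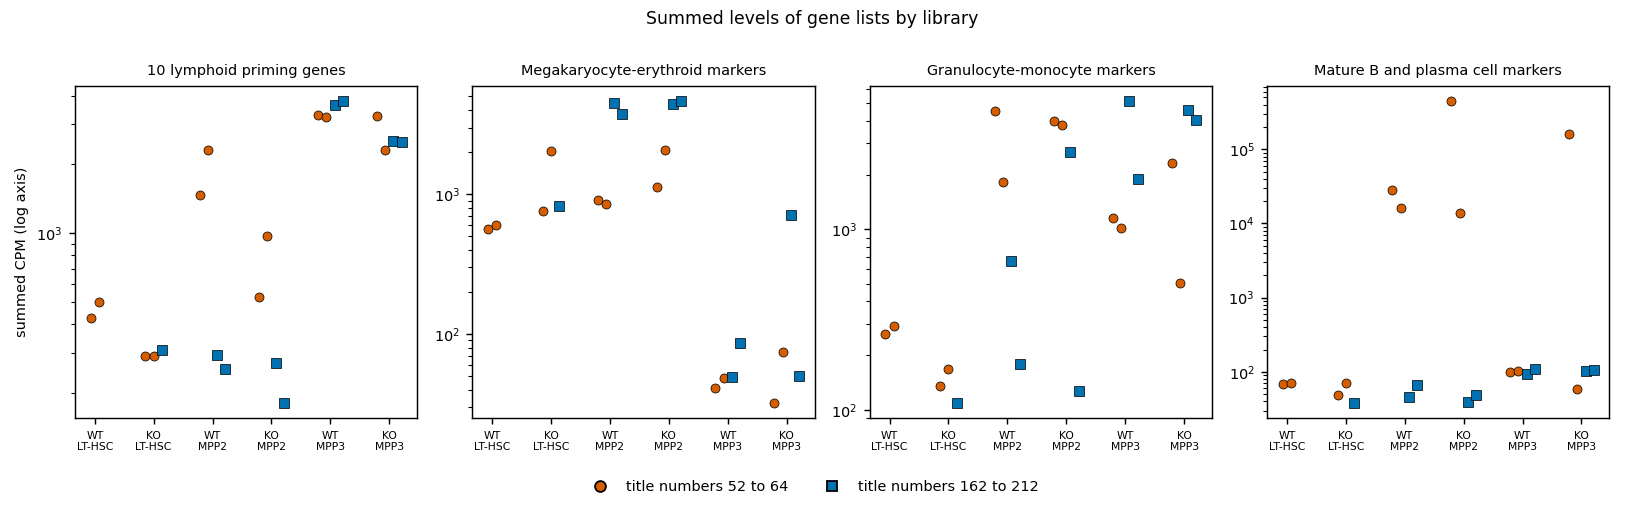
Summed CPM of the 10 lymphoid priming genes and of 3 lists of 10 markers each, by library, on log axes; circles are low-numbered and squares high-numbered libraries. In MPP2 the 10 genes sum to 524 to 2317 CPM in low-numbered and 181 to 294 CPM in high-numbered libraries, while the megakaryocyte-erythroid markers run the other way.

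With the 4 low-numbered MPP2 libraries left out, a choice made after seeing the data, MPP3 exceeded MPP2 for 7 of 10 genes in WT and 8 of 10 in KO, where 3.09% and 2.59% of all genes were called higher. In WT these were Flt3 (5.51 ± 0.791, edgeR adjusted p = 0.000901), Satb1 (4.08 ± 0.41), Lsp1 (2.62 ± 0.317), Il12a (2.17 ± 0.365), Dntt (7.62 ± 1.75), Rag2 (5.49 ± 1.36) and Il7r. In KO they were the same 7 and Ccr9. Lsp1 then passed as lower in MPP2 than in LT-HSC, by -1.87 in WT (edgeR adjusted p = 0.00988) and by -1.9 in KO (edgeR adjusted p = 0.00496), as did 1.72% and 1.95% of all genes.

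Between KO and WT no gene of the 10 passed in any population, and few genes of any kind did. In LT-HSC 0 of 10 passed, against 0.00474% of all genes. In MPP2 0 of 10 passed, against 0.0142%, and in MPP3 0 of 10, against 0.00948%. At an unadjusted p under 0.05 the counts were 0, 2 (Rag1 and Satb1) and 0, against 2.43%, 6.72% and 5.62% of all genes. DESeq2 called 1, 0 and 0, the 1 being Ccr9 in LT-HSC on 4 counts. The SE left room for sizeable differences: for Flt3 the log2 difference, KO relative to WT, was -1.80 ± 1.35 for LT-HSC, -1.0 ± 1.06 for MPP2 and -0.53 ± 1.05 for MPP3. These SE rest on 1 spread estimate over all 6 groups, not on each population alone. The SD of Flt3 was 115% (WT) and 123% (KO) of the mean in MPP2, but 13.8% and 14.2% in MPP3. In LT-HSC it was 24.6% and 76.2%. With groups divided by title number, Flt3 in MPP3 differed by -0.43 ± 0.683 (low-numbered) and -0.63 ± 0.684 (high-numbered). A p above the threshold does not show that the genotypes were alike.

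**Figure D3:**
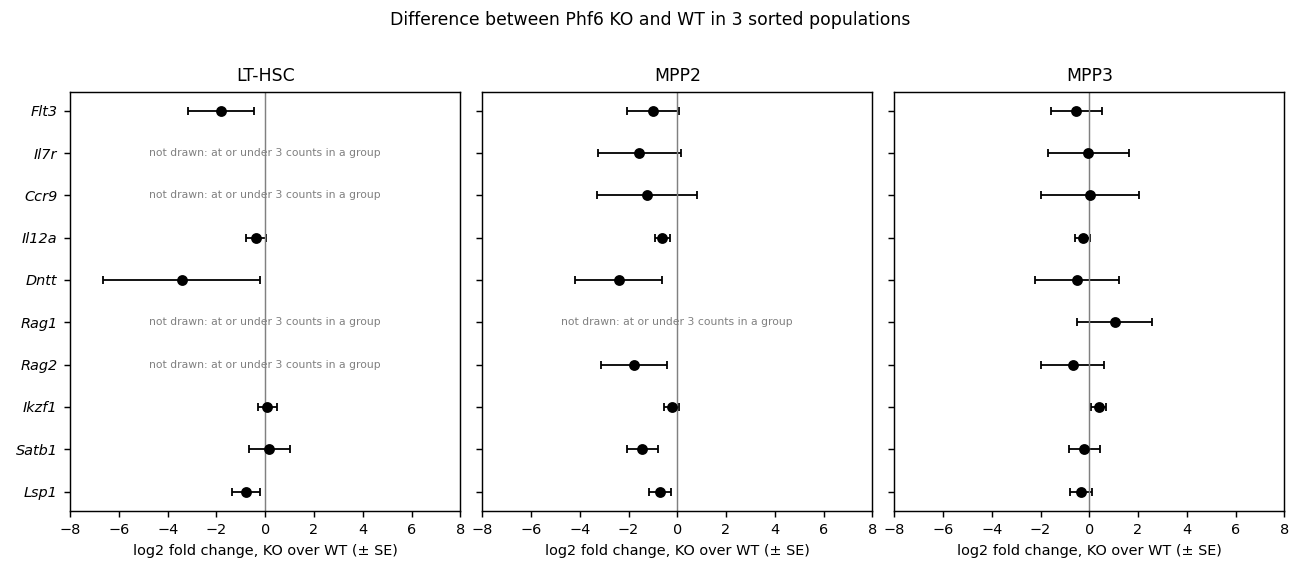
Log2 fold change of KO over WT for each of the 10 genes in LT-HSC, MPP2 and MPP3, with bars of 1 SE from edgeR; genes at 3 counts or fewer in a group are not drawn. Most points lie left of 0, all of them in MPP2, and no gene passed the adjusted threshold.

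The direction of the differences was mostly toward lower levels in KO. The median log2 difference of the 10 genes was -1.34 in MPP2 and -0.24 in MPP3, beside 0.01 and 0 over all genes. In LT-HSC it was -0.90 over the 8 genes for which a fold could be given, with values at their bound or pooled ratio where a group had 3 counts or fewer, beside 0. Flt3 and Lsp1 were lower in KO in all 10 pairs of libraries with the same replicate number, 2 of LT-HSC and 4 each of MPP2 and MPP3, as were 0.521% of all genes. These 10 pairs are not independent, since populations may share a mouse. Both genes were also below both WT libraries in all 3 KO LT-HSC libraries, as were 10.8% of all genes, while in MPP2 0 of 10 genes were lower in every KO than in every WT library, as were 1.08% of all genes. In LT-HSC the mean Flt3 was 74.8 ± 18.4 CPM in WT (SD, n = 2) and 21.4 ± 16.3 CPM in KO (SD, n = 3), and the mean Lsp1 254 ± 0.724 and 146 ± 30.6 CPM. For Lsp1 the log2 difference was -0.80 ± 0.565 for LT-HSC, -0.70 ± 0.446 for MPP2 and -0.34 ± 0.444 for MPP3 (edgeR adjusted p = 1, 0.846 and 1).

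Among the low-numbered MPP2 libraries, 8 of 10 genes were lower in both KO libraries than in both WT libraries, as were 14.7% of all genes, with Flt3 and Ccr9 the exceptions. Within the low-numbered MPP2 libraries Satb1 differed by -1.58 ± 0.436 and Il12a by -1.07 ± 0.36 (edgeR adjusted p = 0.895 for each). Satb1 and Lsp1 were lower in KO without overlap among the low-numbered and also among the high-numbered MPP2 libraries, as were 3.14% of all genes. Lsp1 differed by -0.66 ± 0.301 among the former and -0.81 ± 0.303 among the latter (edgeR adjusted p = 0.895 and 0.607). Rag1 had 98 counts over the WT MPP2 libraries and 0 over the KO ones, at least 30.4-fold lower in KO with 3 counts over the group as floor (edgeR adjusted p = 0.738), and all 98 came from WT replicates 1 and 2. KO MPP2 replicate 1, with 45.8% antibody gene counts, is among these low-numbered libraries. Without it and the 2 other libraries rich in antibody gene or ribosomal RNA counts, no gene of the 10 passed between KO and WT either.

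In MPP3, Flt3 was lower in every KO than in every WT library (645 to 899 against 923 to 1262 CPM), the only gene of the 10 without overlap, as were 1.62% of all genes. Its mean was 1091 ± 151 CPM in WT and 753 ± 107 CPM in KO (SD, n = 4 each). Dntt and Rag2 were lower in KO in all 4 same-numbered pairs, as were 7.24% of all genes, with log2 differences of -0.50 ± 1.71 and -0.69 ± 1.30. The SE come from a spread estimated over all 6 groups. Ikzf1 (0.38 ± 0.297), Rag1 (1.05 ± 1.54) and Ccr9 (0.02 ± 2.0) were the 3 genes with a positive value in MPP3. Without KO MPP3 replicate 2 the Ikzf1 value was -0.17. Leaving out KO MPP3 replicate 1 gave a difference among low-numbered MPP3 libraries of 1.21 for Ikzf1 (edgeR adjusted p = 0.00813) and -1.35 for Lsp1 (edgeR adjusted p = 0.00522), which then rest on the ribosomal RNA-rich replicate 2 alone as KO sample.

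No gene of the 10 passed the tests of whether the KO difference itself differed between populations, nor did any other gene, with 0% of all genes called in each of the 3 tests. At an unadjusted p under 0.05 the counts were 0 for MPP2 against LT-HSC, 0 for MPP3 against LT-HSC and 1 for MPP3 against MPP2, where 3.6%, 2.47% and 4.47% of all genes had one, and DESeq2 called 0 of the 10 in each. Within the low-numbered and high-numbered libraries taken apart, 0 of 10 passed in all 5 comparisons of KO with WT, where 0% to 0.00948% of all genes did. At an unadjusted p under 0.05 the count in low-numbered LT-HSC was 1, against 2.72% of all genes. In low-numbered MPP2 it was 4 (Rag1, Satb1, Il12a and Lsp1, all lower in KO), against 5.34%. In high-numbered MPP2 it was 1, against 7.5%. In low-numbered and high-numbered MPP3 it was 1 and 0, against 6.48% and 5.38%. DESeq2 called Ccr9 in 2 of the comparisons. With no filter on low counts, edgeR called 7 values of the 10 genes, all lower in KO. These were Flt3 (-1.44) and Dntt (-2.84) in low-numbered LT-HSC, Dntt (-2.36) and Satb1 (-1.55) in low-numbered MPP2, and Flt3 (-1.32), Dntt (-2.77) and Rag2 (-2.31) in high-numbered MPP2. Of all genes, 0.167%, 0.188% and 0.289% were called lower in these 3 comparisons. Some of the 7 values rest on 1 library per genotype. Dntt in low-numbered LT-HSC had 45 and 0 counts in WT and 0 and 6 in KO. In high-numbered MPP2, Dntt had 361 and 0 counts in WT and 50 and 0 in KO, and Rag2 58 and 0 against 11 and 0.

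Across libraries the genes moved together to unequal degrees. Pearson's r of log2 CPM over the 21 libraries, which share depth, populations and mice, had a median of 0.771 over the 45 pairs of genes. After subtracting the 6 group means it had a median of 0.556, from 0.025 to 0.942, and was highest for Flt3 with Dntt (0.942), Flt3 with Rag2 (0.939) and Dntt with Rag2 (0.925). Rag1 with Rag2, its neighbour, had 0.475. With means taken per group and title number range, the median was 0.106. Where such a mean is over 2 libraries, their deviations mirror each other, so fewer than 21 values are independent. Pairs that stayed high were Flt3 with Rag2 (0.802), Flt3 with Dntt (0.784), Il7r with Rag1 (0.729) and Dntt with Rag2 (0.715). In the 8 MPP3 libraries alone the median was 0.191. Dntt with Rag2 had 0.894 there, but Flt3 with Dntt had 0.426 and Flt3 with Rag2 0.302. Ikzf1 with Lsp1 had -0.918, with KO MPP3 replicate 2 holding the highest Ikzf1 and the lowest Lsp1.

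**Figure D4:**
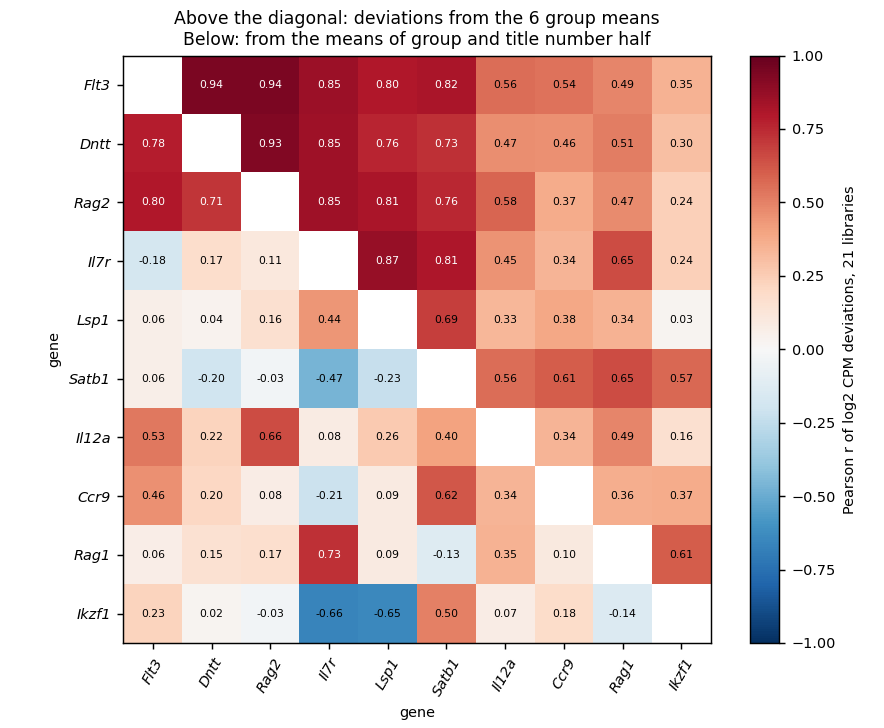
Pearson's r of log2 CPM deviations over 21 libraries for each pair of the 10 genes, above the diagonal after subtracting the 6 group means and below it after subtracting the means by group and title number range. Flt3, Dntt and Rag2 stay together in each (0.715 to 0.802 below the diagonal), while the median falls from 0.556 to 0.106.

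The genes whose levels most resembled Flt3 across the 21 libraries, of 8977 named genes with a mean of at least 10 CPM, were Cd34 (r = 0.982), Wfdc17 (0.976), Wfdc18 (0.964), Slc18a1 (0.959) and Milr1 (0.953). Cd34, a sialomucin used to mark progenitors as opposed to long-term stem cells, had a median of 283 CPM over LT-HSC libraries, 388 over MPP2 and 1320 over MPP3. Those most like Dntt were Cox6a2 (0.965), the chemokine gene Ccl9 (0.944), Slc18a1 (0.933), Arpp21 (0.93) and Bex6 (0.929). Ccl9 had medians of 4.8, 40.4 and 293 CPM in the same order. These r values are over libraries that share populations and mice and carry no p.

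Of 36 further lymphoid genes, chosen by function, 35 could be tested. They comprise 13 regulators, 6 T lineage genes, 9 B lineage genes and 8 surface and signalling genes. With edgeR 0 passed between KO and WT in each population, where 0.00474% to 0.0142% of all genes did. At an unadjusted p under 0.05 LT-HSC had 3, MPP2 2 and MPP3 1, against 2.43%, 6.72% and 5.62% of all genes, and DESeq2 called 2, 0 and 0 in that order. Between populations in WT edgeR called 0, against 0.63% to 1.2% of all genes. At an unadjusted p under 0.05 the counts were 7 from MPP2 to MPP3, 7 from LT-HSC to MPP3 and 5 from LT-HSC to MPP2. Of all 21100 genes, 2858, 1941 and 2744 had such a p in these comparisons. DESeq2 called 3 to 5, and its share of all genes is not given here. In KO, Cd27, a receptor of the TNF family, rose from LT-HSC to MPP3 by 1.32 and from MPP2 to MPP3 by 1.70 on the log2 scale, where 1.09% and 0.36% of all genes were called higher. Gata3, a T lineage factor also found in stem cells, was lower in KO MPP2 than in KO LT-HSC (-2.45 ± 0.427, edgeR adjusted p = 0.00491), where 1.81% of all genes were called in either direction. Between low-numbered and high-numbered MPP2 libraries 13 of the 35 were higher and 0 lower, where 4.51% of all genes were called higher, among them Notch1 (3.15 ± 0.407, edgeR adjusted p = 0.000453) and Spi1 (0.80 ± 0.179, edgeR adjusted p = 0.016). Cd79a, also on the list of B and plasma cell markers, was another. In MPP3 2 of 35 were higher in low-numbered libraries, Bcl11a and Tcf4, where 0.545% of all genes were called in either direction. Gata3, Notch1, Spi1, Cd79a, Bcl11a and Tcf4 were picked for naming after their values were seen. The median log2 difference of the 35 between KO and WT was -0.08 for LT-HSC, -0.14 for MPP2 and 0.05 for MPP3.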

How the data were processed

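The deposited table holds raw read counts per gene, made by the authors; STAR and mm10 are named, per the submitters' processing notes. Which program counted reads, with which annotation and strand setting, is not given in the sources used here. Of 54446 gene IDs, 54409 matched GENCODE M21. Libraries were grouped by their labels. Counts were tested with edgeR 4.0.16 (R 4.3.3; TMM factors, filterByExpr with a minimum count of 10, robust quasi-likelihood fit, Benjamini-Hochberg threshold 0.05) over 21100 genes in 21 libraries of 6 groups, and in a second fit with groups divided by title number into 11 cells. The script was tested on simulated data. Because libraries are not tied to mice in the labels, p-values measure the spread between these libraries. CPM are counts per 1000000 of TMM-scaled library size. Floors and counting intervals (95%) cover counting error only. Alternatives were DESeq2 1.42.0, upper-quartile factors, no filter, a title number term, blocks, fits of only the groups compared, and leaving out libraries. Same-numbered KO and WT libraries deviated together in MPP2 (correlations 0.207 to 0.282), but not by the same measure in every pair of MPP3 (0.0807 to 0.141) or LT-HSC (0.039 and 0.0417). Named were the 10 members, the 5 genes most like Flt3 and like Dntt, and further listed genes that passed between MPP3 and LT-HSC or between KO and WT; some listed genes are not reported here by name. Members and lists were chosen with earlier results of these data known.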

Additional observations from a re-analysis of the deposited data

Results flagged for a closer look

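Among 40 groups of 4 libraries checked for a value far from the others, 2 were found, both for Ccr9; chance gives such a value in about 5% of groups. WT MPP2 replicate 2 had 19.3 CPM of Ccr9 while the other WT MPP2 libraries had 0 to 0.0328 CPM. KO MPP2 replicate 2 had 8.09 CPM while the other KO MPP2 libraries had 0. The difference between low-numbered and high-numbered libraries was greater in MPP2 than in MPP3, by a test of the difference itself, for 4 genes: Flt3 by 4.4, Satb1 by 2.26 and Lsp1 by 1.97 on the log2 scale, and Il7r by a fitted 12.36, which is no bound because its high-numbered MPP2 libraries held 0 counts.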

How the results depend on the processing

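Between KO and WT, 0 of the 10 genes passed in LT-HSC, MPP2 and MPP3 under every alternative run, leave-one-out included (0 to 0), except that DESeq2 called 1 in LT-HSC (Ccr9). The replicate number as a block left these counts at 0, and in the 3 differences between populations too; the genes called among all tested became 0, 11 and 5 in place of 1, 3 and 2. With the mouse as a block, from title numbers, 3 in place of 4 genes passed between LT-HSC and MPP3 in KO, and no other count changed. DESeq2 called 3 genes between MPP2 and MPP3 in WT, 6 between LT-HSC and MPP3, 4 between LT-HSC and MPP2, and in KO 4, 8 and 3; it called 1 between title number ranges in MPP3 and 2 between KO and WT within them. With no filter on low counts, 1 gene passed between LT-HSC and MPP3 in WT, 1 between MPP2 and MPP3 in KO, 7 in the difference between title number ranges and 7 between KO and WT within ranges, all lower in KO. Some of the last 7 rest on 1 library per genotype. With a title number term, 3 passed between MPP2 and MPP3 in WT, 1 between LT-HSC and MPP2 in WT and 7 between LT-HSC and MPP3 in KO. With only the groups compared, 0 passed between MPP2 and MPP3 in WT and in KO, 8 between LT-HSC and MPP3 in WT and 7 in KO. Without the 3 libraries rich in antibody gene or ribosomal RNA counts, chosen after seeing the data, 0 passed between MPP2 and MPP3 in KO and 2 between LT-HSC and MPP3. Without low-numbered MPP2 libraries, also chosen after seeing the data, 7 passed between MPP2 and MPP3 in WT and 8 in KO, and 1 was lower in MPP2 than LT-HSC in each. Leaving out each library gave 0 to 2 between MPP2 and MPP3 in WT and in KO, 0 to 2 between LT-HSC and MPP3 in WT, 2 to 3 in KO, 5 to 7 between title number ranges in MPP2, 0 to 2 in MPP3, 2 to 5 in their difference and 0 to 2 between KO and WT within ranges. For most of these alternatives the share of all genes called is not given here, so a changed count is not a result about the 10 genes as such. The cause of these shifts was not tested.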
